A study of Mus musculus with 8 samples.

Results

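The genes described here are the 6 peroxiredoxins Prdx1 to Prdx6 and the 4 glutathione peroxidases Gpx1, Gpx4, Gpx7 and Gpx8. They were chosen by symbol and not by a rule on their values, though with earlier results of these data known. All 10 were found in each of the 8 libraries, among 54146 genes, and all 10 had enough counts to be tested in every comparison. RNA-seq was performed on primary cortical astrocytes of newborn C57BL/6 mice in 4 groups of 2 biological replicates, namely control KD or GSTM1 KD, each left unstimulated (the basal state) or given TNF-α (50 ng/ml, 6 h). In GSTM1 KD, mixed glia carried a lentiviral shRNA against Gstm1, a cytosolic glutathione S-transferase, and in control KD a non-silencing shRNA. All 4 groups went through lentiviral infection and puromycin selection, and astrocytes were then collected by shaking and by removal of CD11b-positive microglia. Brains of about 2 pups went into a flask, and whether the 2 replicates of a group came from separate flasks is not given, so the p-values measure the spread between these libraries.

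Peroxiredoxins reduce hydrogen peroxide and organic peroxides through a reactive cysteine that is mostly restored by thioredoxin, with thioredoxin reductase and NADPH behind it. The classical glutathione peroxidases, which have a selenocysteine, do so at the expense of glutathione, and others of the family have a cysteine instead. The members differ in where they work: Prdx1, Prdx2, Prdx6 and Gpx1 largely in the cytosol, Prdx3 in mitochondria, Prdx5 in mitochondria, peroxisomes and cytosol, and Prdx4, Gpx7 and Gpx8 in the endoplasmic reticulum (ER), while Gpx4 reduces peroxides of membrane phospholipids.

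The sequences below show the catalytic codon, by which the glutathione peroxidases fall into selenium enzymes and cysteine enzymes. The coding windows of 27 bases around that codon, read 5′ to 3′ on the coding strand from the GENCODE transcripts of GRCm38, show the catalytic codon in capitals. In Gpx1 and Gpx4 it is TGA, annotated as selenocysteine, and in Gpx7 and Gpx8 it is TGT and TGC, which encode cysteine. Among the peroxiredoxins, Prdx4, Prdx5 and Prdx6 are shown, with a TGT, a TGT and a TGC.
Gpx1: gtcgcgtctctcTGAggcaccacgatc
Gpx4: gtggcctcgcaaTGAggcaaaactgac
Gpx7: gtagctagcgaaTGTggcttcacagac
Gpx8: gtggctagtgacTGCcgcttcacagac
Prdx4: ttcacctttgtgTGTccaactgaaatc
Prdx5: tttacacctggcTGTtctaagacccac
Prdx6: tttaccccagtgTGCaccacagaactt

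These windows lie in coding exons at chr9:108339439-108339465 (plus strand) for Gpx1, chr10:80054725-80054751 (plus) for Gpx4, chr4:108403418-108403444 (minus) for Gpx7, chr13:113045649-113045675 (minus) for Gpx8 and chr1:161247356-161247382 (minus) for Prdx6. Those of Prdx4 (chrX:155332448-155334839, minus) and Prdx5 (chr19:6907668-6908002, minus) are joined over an intron. The closest pair of coding sequences among the members was Prdx2 and Prdx4, at 74.1% identity. Near-identical copies elsewhere in the genome that were counted held at most 7 counts per library for Prdx1 and 3.02 for Prdx2, and none was found for the other members except Gpx4. The pseudogene Gpx4-ps2 shares 733 bases with Gpx4 at 99.7% identity and was assigned 282 to 626 counts per library, so the split of reads between the pair is uncertain.

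Levels were compared between genes as TPM, a transcript abundance that is scaled by transcript length and to one total per library. Prdx6 was the most abundant member, with a median of 1962 TPM over the 8 libraries and a range of 1592 to 2918. Gpx4 came next with a median of 1110 TPM (1054 to 1206), followed by Gpx1 at 571 (441 to 744) and Prdx1 at 509 (482 to 527). Prdx2 had a median of 438 TPM (378 to 481), Gpx8 319 (260 to 395) and Prdx5 310.5 (255 to 359). The lower end was formed by Prdx3 at a median of 141 TPM (132 to 146), Prdx4 at 92.0 (62.4 to 96.8) and Gpx7 at 20.6 (11.9 to 25.2). Of the neighbours in this order, the ranges of Gpx1 and Prdx1, of Prdx2 and Gpx8, and of Gpx8 and Prdx5 overlapped, and the other 6 pairs did not. Of the ER members, Gpx8 was thus the abundant one and Gpx7 the least abundant of the 10. Of the other genes of these families, Gpx3, the secreted plasma enzyme, had 21.0 to 30.7 TPM (294 to 868 counts per library), which overlapped the range of Gpx7. Prdx6b had at most 1 count, and Gpx2, Gpx5 and Gpx6 were at 0.

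**Figure D1:**
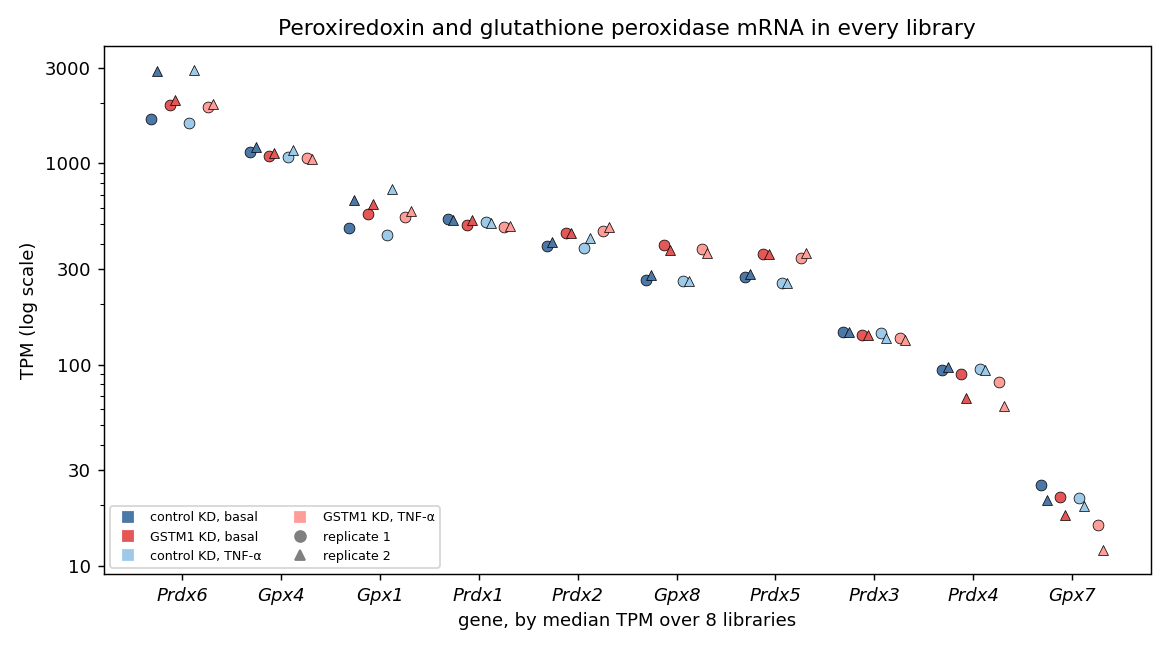
TPM on a log axis of each gene in each of the 8 libraries, with color for the group, circles for replicate 1 and triangles for replicate 2. Prdx6 and Gpx1 spread between the control KD replicates, Gpx8 and Prdx5 separate by knockdown, and Gpx7 is lowest at 11.9 to 25.2 TPM.

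The total expected counts per library ran from 17349676 to 34434633. Gstm1 was 372.8 and 619 TPM in control KD versus 49.7 and 53.8 TPM in GSTM1 KD in the basal state, and 338 and 627 against 40.5 and 39.4 TPM after TNF-α. Its log2 fold change was -3.33 (edgeR adjusted p = 0.0132) and -3.68 (adjusted p = 0.0098). The control KD replicates stood apart from each other in both states. Replicate 2 held 3.12 times the TPM of replicate 1 for Gfap, the astrocyte intermediate filament, in the basal state and 3.10 times after TNF-α. The summed TPM of 8 astrocyte markers was 1467 to 3607 in control KD versus 3542 to 5613 in GSTM1 KD in the basal state (1508 to 3544 and 3432 to 5347 after TNF-α). Gfap made up 43.2% to 74.5% of this sum. The rest overlapped, at 760 to 1401 in control KD versus 1209 to 1429 TPM in GSTM1 KD in the basal state. After TNF-α the rest was 857 to 1528 versus 1289 to 1519 TPM. For 6 fibroblast or mural markers, among them Acta2 and collagen genes, the sum was 3666 to 4031 in control KD versus 1836 to 2188 in GSTM1 KD in the basal state, and 3100 to 3171 and 1610 to 1875 after TNF-α. Acta2, smooth muscle actin, made up 94.2% to 97.6% of this sum in each library. The other 5 markers summed to 95.5 to 145 in control KD versus 74.8 to 107 TPM in GSTM1 KD without TNF-α and to 83.5 to 121 versus 59.8 to 93.6 TPM with it, which overlapped, and Pdgfrb had log2 fold changes of 0.46 and 0.81 (edgeR adjusted p = 0.184 and 0.0337). By edgeR, 2 of the 5 tested fibroblast or mural markers were lower in GSTM1 KD in the basal state, and 2 were lower and 1 higher after TNF-α. Of the 8 astrocyte markers, edgeR called 1 lower in each state, S100b (log2 fold change -1.44 and -1.71, edgeR adjusted p = 0.0269 and 0.0387). The log2 fold changes were 1.10 and 1.08 for Gfap, 1.05 and 1.22 for Aldh1l1, and 1.11 and 1.10 for Aldoc. They were 0.67 and 0.49 for Slc1a2, 0.36 and 0.066 for Gja1, -0.077 and -0.018 for Aqp4, and 0.0065 and -0.034 for Slc1a3. None of these passed in edgeR, and the median of the 8 markers was 0.51 in the basal state and 0.28 after TNF-α. Of the fibroblast or mural markers, Col1a1 and Col1a2 had 1484 to 5404 and 1205 to 4319 counts per library, and Dcn and Lum at most 46 and 7. Col1a2 was called lower in both states (log2 fold change -1.13 and -0.99, edgeR adjusted p = 0.0352 and 0.025). The 8 microglial markers summed to 2.88 to 7 TPM in control KD versus 1.52 to 2.22 in GSTM1 KD without TNF-α and overlapped with it. The 5 endothelial markers summed to 5.38 to 6.16 versus 2.64 to 3.06 TPM and, after TNF-α, to 6.53 to 7.9 versus 3.37 to 4.56 TPM. Of them Flt1 had 112 to 408 counts, Cdh5 17 to 218 and Cldn5 0, and both tested genes, Flt1 and Cdh5, were called lower by DESeq2 in the basal state and by edgeR in neither. The 5 choroid plexus or ependymal markers overlapped without TNF-α (76.3 to 118.1 versus 102 to 118.2 TPM) and summed to 65.1 to 77.4 versus 93.5 to 104 TPM with it. Foxj1 made up 88.3% to 99.5% of this sum and was not called in either state (log2 fold change 0.0067 and 0.30, edgeR adjusted p = 0.987 and 0.122). Folr1, with 3 to 55 counts, was called higher in both states (log2 fold change 2.67 and 2.78, edgeR adjusted p = 0.0476 and 0.033). Oligodendrocyte lineage markers summed to 533 to 596 TPM in control KD versus 423 to 441 in GSTM1 KD without TNF-α and to 448 to 479 versus 340.4 to 352 with it, while Sox10 and Mog had at most 9 and 1 counts. Olig1 made up 77.4% to 82.3% of the oligodendrocyte sum. Olig2 was called lower in both states (log2 fold change -0.85 and -1.14, edgeR adjusted p = 0.0251 and 0.0101). Olig1 was called lower after TNF-α (-0.44, edgeR adjusted p = 0.0497), whereas Cspg4 had 0.32 and 0.24 without passing. The 7 neuron markers overlapped in both states (169 to 193 in control KD versus 192 to 232 TPM in GSTM1 KD without TNF-α). Stmn2 made up 48.5% to 61.9% of this sum. The rest was 80.2 to 86.05 versus 97.8 to 98.8 TPM in the basal state and overlapped after TNF-α. None of the 4 tested neuron markers was called by edgeR or DESeq2. The level of Acta2 and the oligodendrocyte and endothelial sums thus moved with the knockdown without overlap in both states. Without TNF-α the microglial sum and the neuron sum less Stmn2 did so, and with TNF-α the level of Foxj1. The astrocyte sum moved with overlap. The part of these markers in the results below was not tested. In these bulk samples, fewer cells of a type and less RNA per cell cannot be told apart.

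GSTM1 KD was compared with control KD in each state to ask how peroxidase mRNA stood when Gstm1 was lowered. Log2 fold changes come from the edgeR fit of counts unless another fit is named, and can differ from ratios of TPM. Gpx8, an ER peroxidase, was the member that stood higher in GSTM1 KD with the smallest p-value in both states, by 1.33-fold each time. Without TNF-α, 0 of the 10 members passed an adjusted p of 0.05 in edgeR's quasi-likelihood test, where 10.2% of the 14899 genes tested passed (4.60% higher and 5.62% lower). At an unadjusted p under 0.05 there were 2 members, Prdx5 and Gpx8, against 31.6% of genes, and DESeq2 called 1, Gpx8 (adjusted p = 0.0429), where it called 18.5% of genes. After TNF-α, 1 member passed in edgeR, Gpx8, against 16.2% of 14593 genes (7.26% higher and 8.92% lower). DESeq2 also called 1 of the 10, against 20.8% of genes, and 3 members had an unadjusted p under 0.05 in edgeR, against 36.2% of genes.

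The signs of the fold changes were the same in both states for all 10 genes, with 3 members above 0 (Prdx2, Prdx5 and Gpx8) and 7 below. Whether the states share cultures is not given, so this is a description. The median log2 fold change of the members was -0.13 in the basal state and -0.12 after TNF-α, beside -0.0020 and -0.011 over all genes tested. In CPM, counts scaled to the TMM-adjusted library size, the 2 GSTM1 KD libraries did not overlap the 2 control KD libraries for 8 of 10 members in either state, 3 above and 5 below, the others being Prdx6 and Gpx1. Among all genes tested, 63.5% did not overlap in the basal state and 66.6% after TNF-α.

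**Figure D2:**
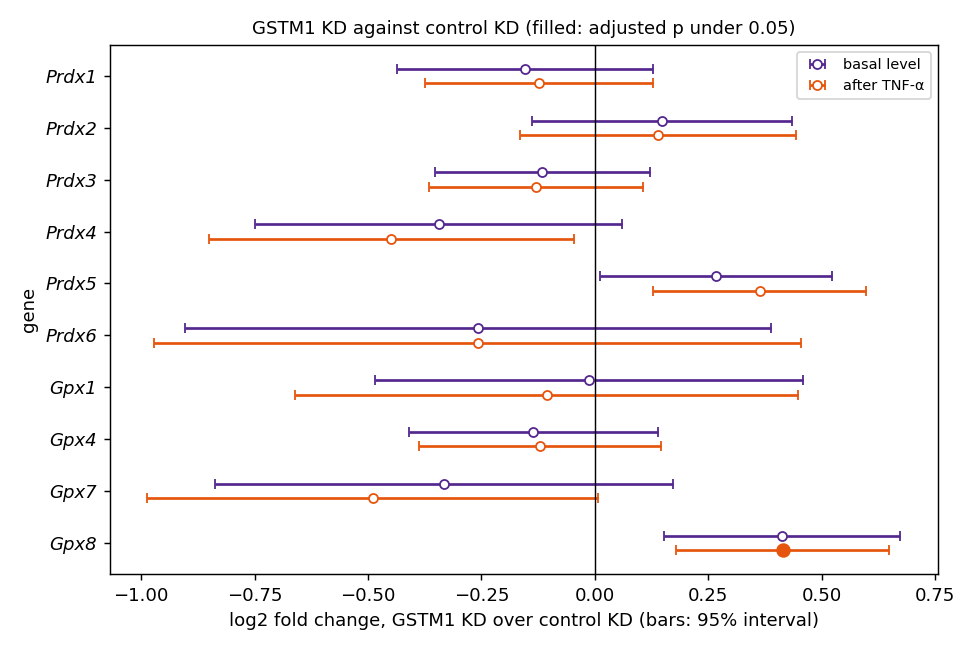
Log2 fold change of GSTM1 KD over control KD for the 10 genes in the basal state and after TNF-α, with 95% intervals from the edgeR fit of 2 against 2 libraries. Filled points passed an adjusted p of 0.05, which holds for Gpx8 after TNF-α (0.41). Prdx6 has the widest interval in each state (-0.90 to 0.39 and -0.97 to 0.45).

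The 3 ER members differed in the sign of their fold change, and of them Gpx8 alone passed the threshold. Gpx8, which resides in the ER membrane, had 265 and 279.6 TPM in control KD versus 395 and 372 TPM in GSTM1 KD in the basal state. After TNF-α it had 262 and 260.2 TPM in control KD versus 375 and 359 TPM in GSTM1 KD. Every GSTM1 KD library was above every control KD library in both states, and the replicates lay close together. In means, this was 272 ± 10.4 against 383 ± 16.0 TPM in the basal state and 261 ± 1.00 against 367 ± 11.7 TPM after TNF-α (SD, n = 2). From counts, the log2 fold change was 0.41 ± 0.11 (SE, 95% interval 0.15 to 0.67, edgeR adjusted p = 0.0647) in the basal state. After TNF-α it was 0.41 ± 0.094 (0.18 to 0.65, edgeR adjusted p = 0.0416). The call after TNF-α was lost with the effective transcript lengths as offsets (edgeR adjusted p = 0.0515) and without either GSTM1 KD library (0.258 without replicate 1 and 0.26 without replicate 2), the log2 fold change being 0.38 to 0.46 in these fits. Without replicate 1 of GSTM1 KD, 0 of 14822 genes passed at all and without replicate 2, 94 of 15253, so the loss of the call in these fits says little about Gpx8 itself. Conversely, the basal difference passed in 5 of 12 alternative fits. They included the fit with the replicate number as a block, in which 31.6% of all genes passed. Gpx8 lies within the span of Cdc20b, a gene on the opposite strand with at most 6 counts in any library.

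Gpx7, the soluble ER peroxidase that hands oxidizing equivalents to protein disulfide isomerases, lay the other way. It had 25.2 and 21.3 TPM in control KD versus 21.9 and 17.8 TPM in GSTM1 KD in the basal state, where the groups overlapped in TPM. After TNF-α it had 21.8 and 19.8 TPM in control KD versus 15.9 and 11.9 TPM in GSTM1 KD, so both GSTM1 KD libraries were below both controls. From counts, the log2 fold change was -0.33 (95% interval -0.84 to 0.17, edgeR adjusted p = 0.315) in the basal state. After TNF-α it was -0.49 (-0.99 to 0.0073, edgeR adjusted p = 0.142), and neither passed. Its counts, 125 to 515 per library, were the lowest of the members.

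Prdx4, the ER peroxiredoxin, also lay lower without passing. Control KD had 94.5 and 96.8 TPM in the basal state, against 89.9 and 68.0 TPM in GSTM1 KD. After TNF-α the values were 95.2 and 94.1 TPM against 82.2 and 62.4 TPM. The control values were nearly equal in all 4 libraries, whereas GSTM1 KD replicate 2 was lower than replicate 1 in both states. From counts, the log2 fold change of Prdx4 was -0.34 ± 0.16 (SE, edgeR adjusted p = 0.212) in the basal state and -0.45 ± 0.16 (edgeR adjusted p = 0.111) after TNF-α. After TNF-α it passed in 2 of 12 alternative fits, without a filter on low counts and with the replicate number as a block, with adjusted p-values of 0.025 to 0.524 over the 12.

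Within a library, the ratio of Gpx8 to Gpx7 in TPM was 10.5 and 13.1 in control KD versus 18.0 and 20.9 in GSTM1 KD in the basal state. After TNF-α it was 12.01 and 13.1 in control KD versus 23.6 and 30.05 in GSTM1 KD. All 4 GSTM1 KD ratios were thus above all 4 control ratios. No test was run on these ratios, and the TPM of Gpx8 alone already separated the knockdowns. The ratio of Gpx8 to Prdx4 likewise ran from 2.75 to 2.89 in control KD and from 4.39 to 5.74 in GSTM1 KD. In every library Gpx8 was thus the highest of the 3 ER messages.

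**Figure D3:**
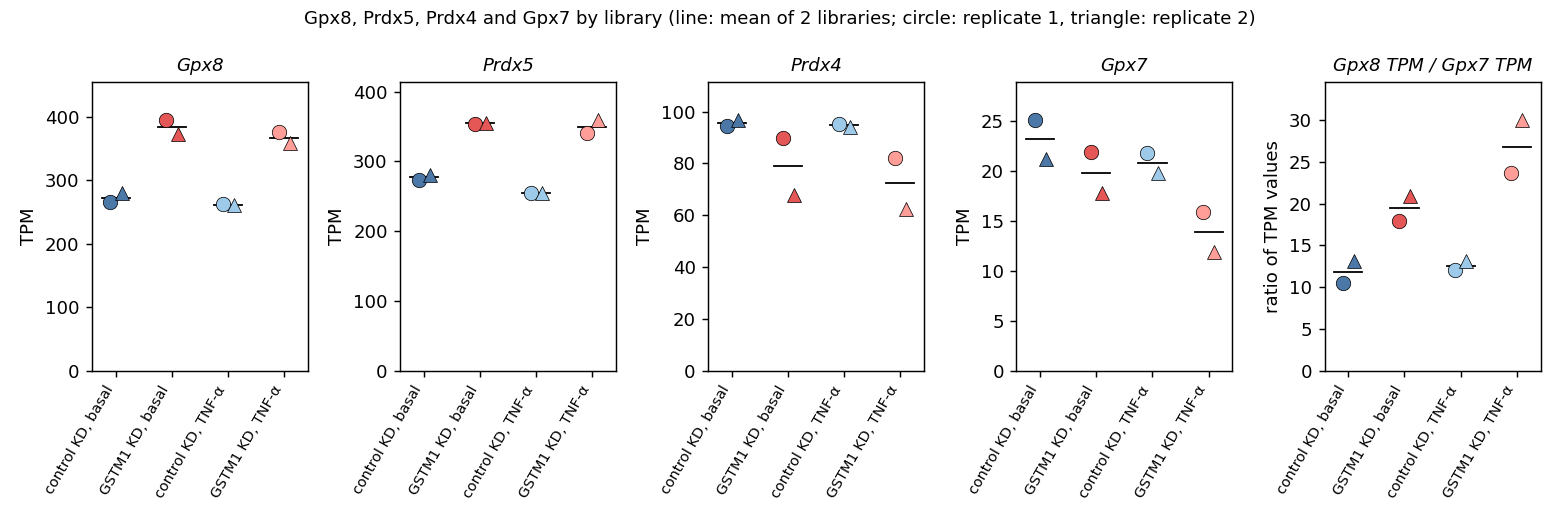
TPM of Gpx8, Prdx5, Prdx4 and Gpx7 and the ratio of Gpx8 to Gpx7 in TPM, by group, with each library as a point (circle replicate 1, triangle replicate 2), the mean of 2 as a line, and axes from 0. Gpx8 and Prdx5 are higher in each GSTM1 KD library than in any control KD library, and the ratio is 10.5 to 13.1 in control KD versus 18.0 to 30.05 in GSTM1 KD.

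Prdx5, whose enzyme reduces peroxynitrite as well as peroxides, was next to Gpx8 in the size of its fold change above 0, without passing in the edgeR fit described above. It did pass after TNF-α with the replicate number as a block, in a fit that called 29.5% of all genes. It had 274 and 281 TPM in control KD versus 353 and 355 TPM in GSTM1 KD in the basal state. After TNF-α it had 255 and 255 TPM in control KD versus 340.1 and 359 TPM in GSTM1 KD. No library of one knockdown overlapped the other, and replicates were nearly the same. The log2 fold change was 0.27 ± 0.10 (SE, 95% interval 0.011 to 0.52, edgeR adjusted p = 0.147) in the basal state and 0.36 ± 0.095 (0.13 to 0.60, edgeR adjusted p = 0.0554) after TNF-α. After TNF-α, 6 of 12 alternative fits called it, with adjusted p-values of 0.0175 to 0.398 over the 12. Prdx5 overlaps Trmt112 on the opposite strand. Use of strand in the counting is not given in the sources used here, and without it reads of such a pair cannot be told apart. Trmt112 had a log2 fold change of -0.53 (edgeR adjusted p = 0.068) in the basal state and -0.39 (0.102) after TNF-α, opposite in sign to Prdx5.

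Prdx3, the mitochondrial peroxiredoxin that thioredoxin 2 restores, spanned 1.11-fold in TPM over the 8 libraries. Without TNF-α it had 145 and 146 TPM in control KD versus 141 and 140.4 TPM in GSTM1 KD. After TNF-α it had 144 and 135 TPM against 136 and 132 TPM, where the groups overlapped. The log2 fold change was -0.12 (95% interval -0.35 to 0.12) in the basal state and -0.13 (-0.36 to 0.11) after TNF-α, with edgeR adjusted p-values of 0.449 and 0.37. The ratio of Prdx5 to Prdx3 in TPM was 1.77 to 1.92 in the 4 control KD libraries and 2.5 to 2.73 in the 4 GSTM1 KD libraries. The TPM of Prdx5 alone already separated these libraries, and no test was run on the ratio.

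Of the cytosolic 2-Cys enzymes, neither passed. Prdx1, which also acts as a chaperone when overoxidized, had 527 and 523 TPM in control KD versus 497 and 523 TPM in GSTM1 KD in the basal state, and 513 and 505 against 482 and 491 TPM after TNF-α. The values of GSTM1 KD and control KD replicate 2 were the same within rounding without TNF-α. Its log2 fold changes were -0.15 (95% interval -0.44 to 0.13) and -0.12 (-0.38 to 0.13), with edgeR adjusted p-values of 0.396 and 0.423. Prdx2, the peroxiredoxin typical of neurons and red cells, had 389 and 408 TPM in control KD versus 451 and 449 TPM in GSTM1 KD in the basal state, and 378 and 428 against 461 and 481 TPM after TNF-α. Both GSTM1 KD libraries were above both controls in each state. The log2 fold change was 0.15 (95% interval -0.14 to 0.43) and 0.14 (-0.16 to 0.44), with edgeR adjusted p-values of 0.421 and 0.451. Prdx2 overlaps Rnaseh2a and Junb on the opposite strand, and Junb, an immediate early transcription factor, was lower in GSTM1 KD in the basal state (log2 fold change -0.74, edgeR adjusted p = 0.0296).

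Prdx6 and Gpx1 were the members whose control KD replicates differed most. Prdx6, a 1-Cys enzyme that also has phospholipase activity and is restored by glutathione, had 1663 and 2885 TPM in control KD versus 1952 and 2076 TPM in GSTM1 KD in the basal state. After TNF-α it had 1592 and 2918 TPM in control KD versus 1904 and 1971 TPM in GSTM1 KD. In both states the GSTM1 KD pair lay between the controls. Control KD replicate 2 held 1.74 times the TPM of replicate 1 in the basal state and 1.83 times after TNF-α, while the GSTM1 KD replicates differed by 1.06 and 1.04 times. The log2 fold change was -0.26 in each state, with 95% intervals of -0.90 to 0.39 and -0.97 to 0.45 and edgeR adjusted p-values of 0.535 and 0.554. Without control KD replicate 1 it was -0.60 in the basal state and -0.64 after TNF-α (edgeR adjusted p = 0.024 and 0.0156), and without control KD replicate 2 it was 0.18 and 0.26 (0.365 and 0.146), so the direction was set by which control library was kept. Prdx6 was 44.3% and 44.7% of the summed TPM of the 10 members in control KD replicate 2 and 33.2% to 36.1% in the other 6 libraries.

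Gpx1, the cytosolic selenoenzyme, had 478 and 659.6 TPM in control KD versus 564 and 628 TPM in GSTM1 KD in the basal state, and 441 and 744 against 540.5 and 578 TPM after TNF-α. As for Prdx6, the GSTM1 KD values lay between the control values. Its log2 fold change was -0.013 (95% interval -0.49 to 0.46, edgeR adjusted p = 0.971) in the basal state and -0.11 (-0.66 to 0.45, edgeR adjusted p = 0.765) after TNF-α. Without control KD replicate 1 the latter was -0.41 (edgeR adjusted p = 0.0389), and without replicate 2 it was 0.28 (0.083). The replicate ratio of Gstm1 itself in control KD, 1.66 and 1.86, and that of the glutamate transporter Slc1a3, 1.47 and 1.62, went the same way as those of Prdx6 and of Gpx1 (1.38 and 1.69), and their part in these differences was not tested.

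**Figure D4:**
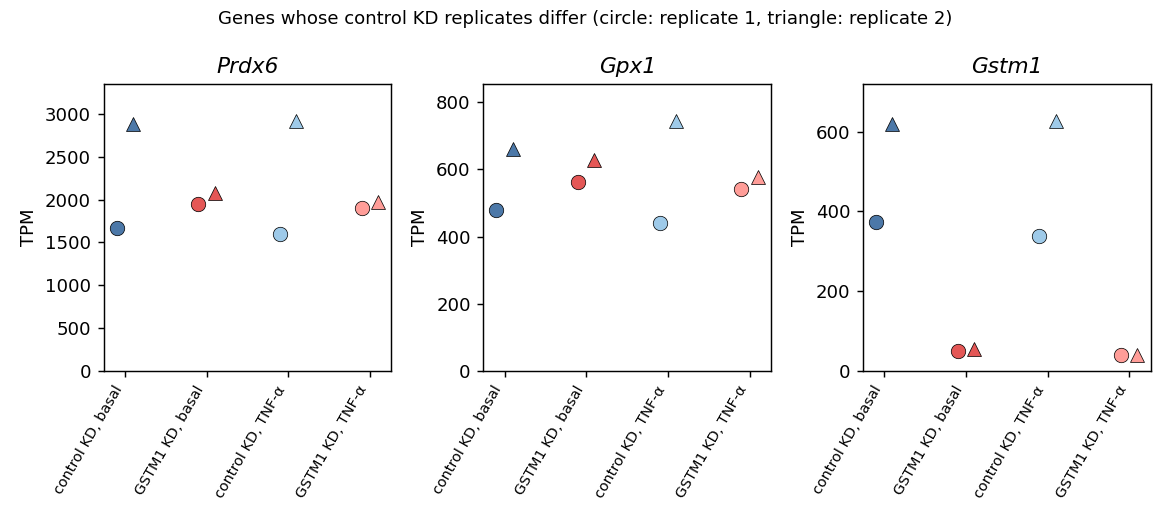
TPM of Prdx6, Gpx1 and Gstm1 in each library by group, with circles for replicate 1, triangles for replicate 2 and axes from 0. Control KD replicate 2 is the highest library of its state for all 3 genes, at 2885 and 2918 TPM for Prdx6.

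Gpx4, the phospholipid hydroperoxidase whose loss leads to ferroptosis, spanned 1.14-fold in TPM over the 8 libraries. It had 1144 and 1206 TPM in control KD versus 1094 and 1126 TPM in GSTM1 KD in the basal state, and 1074 and 1172 against 1062 and 1054 TPM after TNF-α. The GSTM1 KD values were below the controls in each state, and the group means differed by little more than the control replicates did without TNF-α and by less after it. From counts, the log2 fold change was -0.14 (95% interval -0.41 to 0.14, edgeR adjusted p = 0.442) in the basal state. After TNF-α it was -0.12 (-0.39 to 0.15, edgeR adjusted p = 0.457).

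The response to TNF-α was compared within each knockdown, on all 8 libraries with 1 coefficient per group, to ask whether the cytokine moved these genes in 6 h. In control KD, 0 of 10 members passed in edgeR, against 2.63% of 15332 genes, and in GSTM1 KD, 0 of 10 passed, against 2.65%. No member had an unadjusted p under 0.05 in either, against 12.5% of genes in control KD and 10.9% in GSTM1 KD. DESeq2 called 0 members in each, against 4.28% and 3.75% of genes. The median size of the log2 change, taken without its sign, was 0.045 for the members beside 0.15 for all genes tested in control KD. In GSTM1 KD these medians were 0.037 and 0.13. In CPM, the libraries before and after TNF-α did not overlap for 4 members in each knockdown, against 34.5% of genes in control KD and 44.5% in GSTM1 KD.

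Gpx7 had the lowest values in both responses, with a log2 fold change of -0.25 (95% interval -0.70 to 0.19, edgeR adjusted p = 0.752) in control KD and -0.39 (-0.84 to 0.067, edgeR adjusted p = 0.587) in GSTM1 KD. For the other 9 members the values lay between -0.087 (Prdx5) and 0.073 (Prdx2) in control KD and between -0.085 (Prdx4) and 0.088 (Prdx2) in GSTM1 KD. The precision differed between genes: the interval for Gpx8 in GSTM1 KD was -0.21 to 0.17, and that for Prdx6 was -0.76 to 0.77. By comparison, Junb, which overlaps Prdx2, had a log2 fold change of 1.94 in control KD (edgeR adjusted p = 0.000589) and 2.37 in GSTM1 KD (0.000268).

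**Figure D5:**
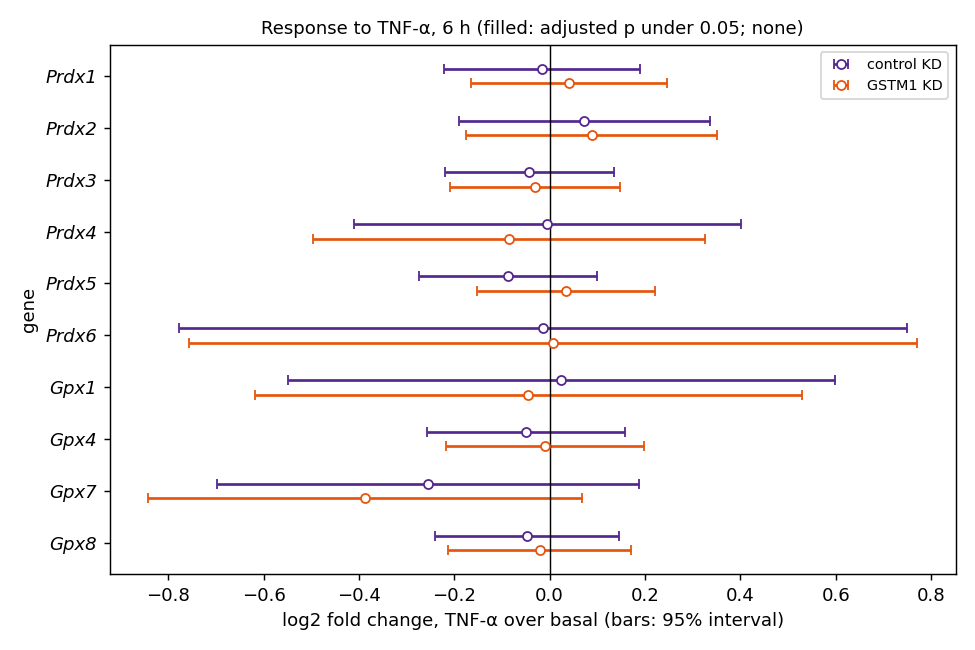
Log2 fold change of TNF-α over the basal state for the 10 genes in control KD and in GSTM1 KD, with 95% intervals from the edgeR fit of all 8 libraries. No gene passed an adjusted p of 0.05, and Gpx7 has the lowest values at -0.25 and -0.39.

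The difference between the responses was tested as an interaction. It ran from -0.13 (Gpx7) to 0.12 (Prdx5) on the log2 scale over the 10 members, and the smallest unadjusted p in edgeR was 0.315. By edgeR 0 of 10 members and 0% of all 15332 genes passed, 295 genes (1.92%) had an unadjusted p under 0.05, and DESeq2 called 27 genes (0.156%), 0 of them members. The interval for Gpx8 was -0.25 to 0.30 and that for Gpx7 was -0.77 to 0.50, so a modest difference in response could not be detected with 2 libraries per group.

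The systems that recharge or accompany these enzymes were followed as lists. Over all genes tested, edgeR called 10.2% in the basal state and 16.2% after TNF-α, and DESeq2 called 18.5% and 20.8%. These shares stand beside each knockdown count here and in the next paragraph, and no list was tested against them. Of 12 thioredoxin and glutaredoxin genes, 0 passed in edgeR in the basal state (DESeq2 0 as well) and 1 was lower after TNF-α, Txnrd1, the cytosolic thioredoxin reductase. Txnrd1 had 352 and 258 TPM in control KD versus 240.0 and 230.0 TPM in GSTM1 KD in the basal state, and 605 and 414 against 281 and 271 TPM after TNF-α, for which the log2 fold change was -0.96 (edgeR adjusted p = 0.0376). Both GSTM1 KD libraries were below both controls. Of 7 genes of glutathione reduction and NADPH supply, edgeR called 1 lower in the basal state, Nnt, the mitochondrial transhydrogenase, and DESeq2 called 2 higher (Idh1 and Idh2) and 1 lower (Nnt) in each state. Idh2, the mitochondrial isocitrate dehydrogenase, had log2 fold changes of 1.06 and 1.12 (DESeq2 adjusted p = 0.00231 and 0.000611, edgeR adjusted p = 0.0764 and 0.0572). Nnt had 6.61 and 6.96 TPM in control KD versus 2.45 and 2.13 TPM in GSTM1 KD (log2 fold change -1.82, edgeR adjusted p = 0.016), and after TNF-α its log2 fold change was -1.23 (edgeR adjusted p = 0.0828, DESeq2 adjusted p = 0.012). After TNF-α, 1 gene of that list was called higher by edgeR, Idh1, the cytosolic NADP-dependent isocitrate dehydrogenase, with 40.2 and 55.0 TPM in control KD versus 80.6 and 97.7 TPM in GSTM1 KD (log2 fold change 0.86, edgeR adjusted p = 0.0345). Txnrd1 uses NADPH, and Nnt and Idh1 supply it. The effective transcript length of Nnt was 2975 and 3003 bases in control KD versus 2509 and 2705 in GSTM1 KD in the basal state. After TNF-α these lengths overlapped. By the paper, pregnant mice for the cultures were bought from a vendor or prepared in-house. Which source each library had is not given, and the part of mouse source in the Nnt difference was not tested. The median log2 fold change of the thioredoxin and glutaredoxin list was 0.031 in the basal state and 0.014 after TNF-α, and that of the glutathione and NADPH list was 0.045 and 0.054, with individual genes on both sides of 0.

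Of 7 genes of selenoprotein synthesis, 0 passed in edgeR in the basal state (DESeq2 0) and 1 was lower after TNF-α, Sephs2, which makes selenophosphate, with 32.1 and 27.3 TPM in control KD versus 21.4 and 21.1 TPM in GSTM1 KD (log2 fold change -0.56, edgeR adjusted p = 0.0447). The median of that list was -0.19 in the basal state and -0.12 after TNF-α. None of the 7 ER oxidative folding genes, which include Ero1l and P4hb, passed in either state by edgeR or DESeq2, and their median log2 fold change was 0.16 in the basal state and 0.028 after TNF-α. None of the 4 superoxide and peroxide enzymes Cat, Sod1, Sod2 and Sod3 passed in edgeR, and DESeq2 called 0 in the basal state and 1, Cat, after TNF-α, with list medians of 0.19 and 0.035. Of the 38 genes tested among these lists and Gpx3, 0 passed in either TNF-α response by edgeR. Its share of all genes was 2.63% for the control KD response and 2.65% for the GSTM1 KD response. DESeq2 called 2 of the 38 in control KD, Txnrd1 and Sod3, both higher, against 4.28% of all genes. For the GSTM1 KD response DESeq2 called 0 of them, against 3.75%. The 38 genes were not tested against these shares.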

How the data were processed

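RNA was sequenced from 8 libraries, 2 per group. The authors prepared strand-specific libraries, mapped reads to GRCm38 with STAR (version 2.5.4b) and quantified genes with RSEM (version 1.3.0). As deposited, expected counts estimate the fragments of each gene, not normalized, with shared reads divided among genes. The TPM values deposited by the authors scale for length and sum, and served here as levels only. The deposited effective lengths (other values, in bases) served as offsets in an alternative. A total of 17349676 to 34434633 counts per library and the number of libraries limit precision.

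Expected counts were rounded and tested with edgeR (version 4.0.16, R version 4.3.3): TMM, filterByExpr, quasi-likelihood F-test, Benjamini-Hochberg adjustment over all genes, threshold 0.05. The knockdowns were compared on the 4 libraries of a state, and TNF-α responses and their difference on all 8. DESeq2 (version 1.42.0), other scalings and filters, a replicate block and leaving out each library were alternatives. The code was tested on simulated data. Copies were transcripts with at least 90% identity over 200 bases (BLAST version 2.17.0). Named genes are all members, Gstm1, list genes past the threshold, and overlapping genes or copies. Other genes, named as list examples or replicate comparisons, were chosen after their values were seen. The members and lists were chosen with earlier results of these data known.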

Additional observations from a re-analysis of the deposited data

How the results depend on the processing

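At the basal level the count of members called went from 0 to 1 with DESeq2, without a filter on low counts, and on all 8 libraries (Gpx8 each time), where 2494 of 24716, 3957 of 24716 and 2762 of 15332 genes in the fit were called. After TNF-α it went from 1 to 2 with library size only, 2 with at least 10 counts in every library and 2 on all 8 libraries (Gpx8 and Prdx5), 3 without a filter (also Prdx4) and 0 with effective lengths, where 17.2%, 17.1%, 20.3%, 18.8% and 13.8% of all genes were called. Leaving out each library in turn gave 0 to 1 at the basal level, where without control KD replicate 1 the gene called was Prdx6, and 0 to 3 after TNF-α. The lone library left in an arm is then assumed to vary like the others, and without a GSTM1 KD library 0 to 94 genes were called in all. Without control KD replicate 1 or 2, 14.3% and 34.2% of all genes were called at the basal level and 18.3% and 32.9% after TNF-α. Both TNF-α responses and their difference stayed at 0 under all alternatives run. Genes of the related lists called went from 1 to 3 (DESeq2) and 9 (no filter) at the basal level, from 3 to 6 and 7 after TNF-α, from 0 to 2 and 3 for the response in control KD, and from 0 to 1 (no filter) for that in GSTM1 KD. The cause of these changes was not tested.

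The replicate numbers are shared by the groups, but the labels do not say that they pair samples. Deviations of same-numbered replicates correlated at 0.22 to 0.69 between groups over 15332 genes. With the replicate number as a block, 1 member was called at the basal level (Gpx8) and 3 after TNF-α (Gpx8, Prdx5 and Prdx4), the calls over all genes went from 1524 to 4712 (31.6%) and from 2360 to 4302 (29.5%), and Gpx1 at the basal level had a log2 fold change of 0.0075.

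Of 560 values for single members under the alternatives, 492 kept their direction and side of the threshold, 16 passed newly, 3 no longer passed and 49 changed sign. Gpx1 at the basal level became 0.015 with library size only and 0.0088 with effective lengths. For the TNF-α response in control KD, Prdx4 became 0.0035 (DESeq2), 0.0010 (DESeq2 size factors), 0.012 (at least 10 counts), 0.013 (effective lengths) and 0.0029 (only 4 libraries), Gpx1 -0.0098 (library size only), Prdx1 0.0011 (at least 10 counts) and Prdx6 0.00048 (at least 10 counts) and 0.022 (effective lengths). For that in GSTM1 KD, Prdx6 became -0.00045 (DESeq2), -0.00079 (DESeq2 size factors), -0.037 (library size only), -0.0066 (no filter), -0.00064 (at least 10 counts) and -0.020 (effective lengths), Prdx1 -0.0049 (library size only) and -0.032 (effective lengths), and Prdx5 -0.011 (library size only). Leaving out libraries gave, for GSTM1 KD against control KD, -0.60 to 0.18 (Prdx6) and -0.25 to 0.26 (Gpx1) at the basal level and -0.64 to 0.26 and -0.41 to 0.28 after TNF-α. For the response in control KD it gave -0.069 to 0.053 (Prdx1), -0.050 to 0.20 (Prdx2), -0.081 to 0.0064 (Prdx3), -0.013 to 0.015 (Prdx4), -0.52 to 0.44 (Prdx6), -0.35 to 0.33 (Gpx1) and -0.10 to 0.013 (Gpx4), and for that in GSTM1 KD -0.070 to 0.0073 (Prdx3), -0.31 to 0.14 (Prdx4), -0.0022 to 0.070 (Prdx5), -0.025 to 0.046 (Prdx6), -0.12 to 0.039 (Gpx1) and -0.069 to 0.034 (Gpx8).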
